A study of Homo sapiens with 20 samples.

Results

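Transcripts of the p53 pathway were followed in U2OS cells, a human osteosarcoma line that keeps wild-type p53. The set lists 9 genes, chosen by symbol as well-known p53 target genes, and every probe set annotated to one of them alone was taken from an array of 54675 probe sets. Of the 9, 8 had such a probe set, 28 in all, and all 8 passed the filter on dim signals, among 14478 genes tested. FDXR had no probe set named for it alone and was not analysed here.

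The cells fell into 5 conditions: hypoxia (under 0.1% oxygen), tunicamycin (2.5 ug/ml), emetine (100 ug/ml), depletion of UPF1 (shRent1 in the labels), and control, with the stresses given for 3 hr. DRB (100 ug/ml), which blocks elongation by RNA polymerase II, was then added, and cells were harvested over the next 4.5 hr at steps of 1.5 hr, the first at DRB addition (0 hr), with 1 array for each condition and time. Tunicamycin prevents N-linked glycosylation, so misfolded protein builds up in the endoplasmic reticulum. Emetine is an inhibitor of translation elongation, and UPF1 is the helicase at the centre of nonsense-mediated mRNA decay. No control hairpin is named in the labels, and nothing in them says that arrays came from separate cultures, so culture and condition cannot be told apart and the p-values measure only the scatter of arrays about a fitted model.

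The p53 protein is a transcription factor that is kept low by MDM2, a ubiquitin ligase whose own gene is a p53 target, and by PPM1D, a phosphatase that reverses activating phosphorylation in the same pathway. Among its other targets, CDKN1A encodes the cyclin-dependent kinase inhibitor p21, FAS a death receptor, TP53INP1 a stress protein that promotes autophagy and cell death, TP53I3 a quinone oxidoreductase, ZMAT3 an RNA-binding protein and RRM2B a ribonucleotide reductase subunit that supplies deoxynucleotides for DNA repair. U2OS cells are known to carry a truncated PPM1D protein and to lack expression of the ARF product of CDKN2A, which normally inhibits MDM2. The arrays measured neither p53 protein nor its activity.

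Promoter sequence is shown for CDKN1A, PPM1D, MDM2 and FAS, the first 3 because all rose in emetine, and FAS because it fell there and has a p53 motif in the window searched. For MDM2 and FAS, which have several windows, the window shown was picked because it holds a match with at most 2 mismatches. Each stretch is the 250 bases before an annotated start, on the plus strand, from RefSeq (GRCh38.p14). Capitals mark matches to the p53 site (20 letters, 2 adjacent half-sites of 10 letters with no spacer and at most 3 mismatches, searched on both strands) and, in PPM1D, the letters TGACGTCA, the palindrome bound by CREB and ATF proteins.
CDKN1A, chr6:36678464-36678713: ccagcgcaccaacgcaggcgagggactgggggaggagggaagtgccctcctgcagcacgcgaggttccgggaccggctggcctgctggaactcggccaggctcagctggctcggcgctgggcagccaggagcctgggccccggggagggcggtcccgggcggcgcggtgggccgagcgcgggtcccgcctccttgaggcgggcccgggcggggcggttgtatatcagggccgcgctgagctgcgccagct
PPM1D, chr17:60599943-60600192: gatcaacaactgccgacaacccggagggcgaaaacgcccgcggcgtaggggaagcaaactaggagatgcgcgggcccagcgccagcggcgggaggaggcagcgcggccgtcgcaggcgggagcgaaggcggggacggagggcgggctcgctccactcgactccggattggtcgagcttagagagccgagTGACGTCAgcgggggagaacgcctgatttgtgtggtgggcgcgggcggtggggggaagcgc
MDM2, chr12:68808767-68809016: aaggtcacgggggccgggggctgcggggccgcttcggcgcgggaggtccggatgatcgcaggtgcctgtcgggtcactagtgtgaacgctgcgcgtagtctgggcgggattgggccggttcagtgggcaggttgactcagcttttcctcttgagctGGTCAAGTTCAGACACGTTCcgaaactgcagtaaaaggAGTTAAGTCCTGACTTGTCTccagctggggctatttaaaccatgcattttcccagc
FAS, chr10:88991181-88991430: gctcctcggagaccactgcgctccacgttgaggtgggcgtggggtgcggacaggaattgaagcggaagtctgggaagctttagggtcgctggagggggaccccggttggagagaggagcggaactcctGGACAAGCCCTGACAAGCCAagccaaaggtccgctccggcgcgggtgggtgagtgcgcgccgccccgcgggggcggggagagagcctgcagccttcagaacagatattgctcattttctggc
RefSeq windows of 300 bases (250 before to 50 after a start) were available for 7 of the 9 genes, 14 windows in all. The MDM2 window shown held 2 matches, starting at -94 with 2 mismatches and at -56 with 3 mismatches, and the FAS window held 1 at -122 with 2 mismatches. MDM2 had 4 windows and FAS 3. The MDM2 windows starting at 68807922 and 68807927 held 0 matches, and the one starting at 68808774 overlaps the window shown and holds the same sites. The FAS windows starting at 88990548 and 88990664 held 0 matches. FDXR had 1 match at -21 with 3 mismatches. None was found in the windows of CDKN1A, PPM1D, TP53I3 or ZMAT3, which says only that these letters are not in this stretch, since a p53 site can lie outside it. Of all 35116 windows, 5.2% held a match with at most 3 mismatches, 0.649% one with at most 2, and 1.85% the letters TGACGTCA.

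Whole-array facts bear on all that follows. Pairs of arrays correlated at 0.930 to 0.996 over probe sets (Pearson), and array medians were 37.3 to 40.4 intensity units. UPF1 signal in the depleted cells was 29.1% of control as a geometric mean over 4 times. At DRB addition it was 169.5 in depleted cells against 355 in control, and at the later times 89.4 to 94.7 against 352 to 392, so the difference was smallest at 0 hr. Of 7 bone and mesenchymal markers with a probe set, 5 were above the filter (VIM, COL1A1, SPARC, RUNX2 and ALPL), while COL1A2 and TWIST1 were below it. Of 7 markers of other cell types, EPCAM, PECAM1 and CD3E were above it, at means of 285, 77.4 and 30.2, and PTPRC, CDH1, KRT19 and CDH5 were below. The summed signal of these 7 ranged from 466 to 664 in hypoxia, 363 to 457 in tunicamycin, 366 to 446 in emetine, 405 to 469 in UPF1-depleted cells and 426 to 552 in control, and its part in the results was not tested. The log2 ratio of the 3' to the 5' ACTB control probe set, which grows as RNA or its amplified copies shorten, was 2.04 ± 0.13 in hypoxia, 0.54 ± 0.11 in tunicamycin, 2.04 ± 0.19 in emetine, 1.24 ± 0.06 in UPF1-depleted cells and 0.55 ± 0.10 in control (SD, n = 4 arrays each). For GAPDH the same ratio was 0.15, 0.00, 0.11, 0.07 and 0.04 in that order. Values below are RMA intensities on a linear scale, which are relative to the typical transcript of the array, and the filter lies at an intensity of 26.0. A gene is represented by its brightest probe set unless others are mentioned.

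In emetine 7 of the 8 genes had their largest estimated difference from control among the 4 treatments. The exception was RRM2B, at 0.40 in emetine and 0.58 after UPF1 depletion. The share of all genes with their largest difference in emetine was not counted. Calls of mean level over all genes were also most frequent in emetine, in both directions. CDKN1A, PPM1D, MDM2, TP53INP1 and RRM2B were higher over the DRB course, and ZMAT3, TP53I3 and FAS were lower. The mean level over the 4 matched times was tested with limma, with DRB time as a factor, and p-values were adjusted by Benjamini-Hochberg over all genes at a threshold of 0.05. By this test 5 of the 8 genes rose and 3 fell in emetine, against a background of 28.4% of all genes called higher and 35.4% called lower, so being called is common there. The median difference over the 8 genes was 0.79 on the log2 scale and that over all genes -0.10. The same counts at the instant of DRB addition were 5 higher and 3 lower, against 18.9% and 19.8% of all genes. In both counts TP53INP1 is among the 5 only with the probe set used, as given below. The ACTB end ratio of emetine arrays differed from that of control arrays, as given above, and its part in these results was not tested.

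CDKN1A had intensities of 2142, 1736, 1849.8 and 1814 in emetine at the successive DRB times, against 932, 638, 482 and 293 in control. Every emetine array lay above every control array, and the control signal fell with time while the emetine signal moved less. The mean difference was 1.80 ± 0.18 (log2 ± SE, 4 against 4 arrays, a 3.49-fold higher level, limma adjusted p = 5.38e-07). At DRB addition the fitted difference was 1.09 ± 0.15 (adjusted p = 0.000128, limma).

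PPM1D had intensities of 1670.3, 1726, 1650.4 and 1721 in emetine, against 597, 525, 257 and 196 in control. The emetine arrays were level within a narrow band and all lay above the control arrays, which declined. PPM1D was 4.77-fold higher in emetine over the course (log2 2.26 ± 0.19, limma adjusted p = 6.82e-08), the largest mean-level difference among the 8 genes in any treatment. That mean includes the decline of the control arrays after DRB. At DRB addition the fitted PPM1D difference was 1.37 ± 0.15 (limma adjusted p = 1.61e-05), below that of the TP53INP1 probe set used (1.61). Its second probe set gave 1.87, also called.

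MDM2 had intensities of 1172, 1194, 1131 and 922 in emetine, against 531, 584, 396 and 441 in control. The 2 sets of arrays did not overlap. The mean difference was 1.19 ± 0.09 (2.28-fold higher, limma adjusted p = 2.42e-08). Of 5 MDM2 probe sets above the filter, each tested separately, 4 were called higher in emetine and 1 lower, with estimates from -0.22 to 1.19, so the probe sets of this gene did not all report the same change.

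TP53INP1, which was near the filter in control, had intensities of 94.6, 90.5, 77.1 and 78.8 in emetine, against 28.8, 32.2, 29.1 and 25.3 in control. The emetine arrays were all higher (log2 difference 1.56 ± 0.15, 2.95-fold, limma adjusted p = 3.79e-07). The other probe set above the filter gave -0.12 and was not called. With the median of the gene's probe sets in place of the brightest, the estimate was 0.20 (adjusted p = 0.170), so the call rests on the choice of probe set. RRM2B had intensities of 509, 572, 536 and 560.5 in emetine, against 341, 456, 388 and 475 in control, without overlap. It was 1.32-fold higher (log2 0.40 ± 0.09, limma adjusted p = 0.000839).

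The 3 genes that fell in emetine were also separated from control on every array. How many of all genes were separated in this way was not counted, in emetine or in the other treatments. By mean level 28.4% of all genes were called higher in emetine and 35.4% lower. ZMAT3 had intensities of 663, 681, 607 and 543 in emetine, against 1050.4, 1307, 1321 and 1414 in control. This was 2.04-fold lower (log2 difference -1.03 ± 0.09, limma adjusted p = 1.18e-07), and all 5 of its probe sets were called lower, from -1.46 to -0.61. TP53I3 had intensities of 687, 728, 749 and 779 in emetine, against 1216, 1194, 1304 and 1317 in control. It was 1.71-fold lower (log2 -0.77 ± 0.06, limma adjusted p = 2.85e-08) and has 1 probe set. FAS had intensities of 222, 279, 269 and 295 in emetine, against 401, 478, 434 and 437 in control. It was 1.65-fold lower (log2 -0.72 ± 0.07, limma adjusted p = 4.72e-07), and all 4 of its probe sets above the filter fell, from -1.02 to -0.29.

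**Figure D1:**
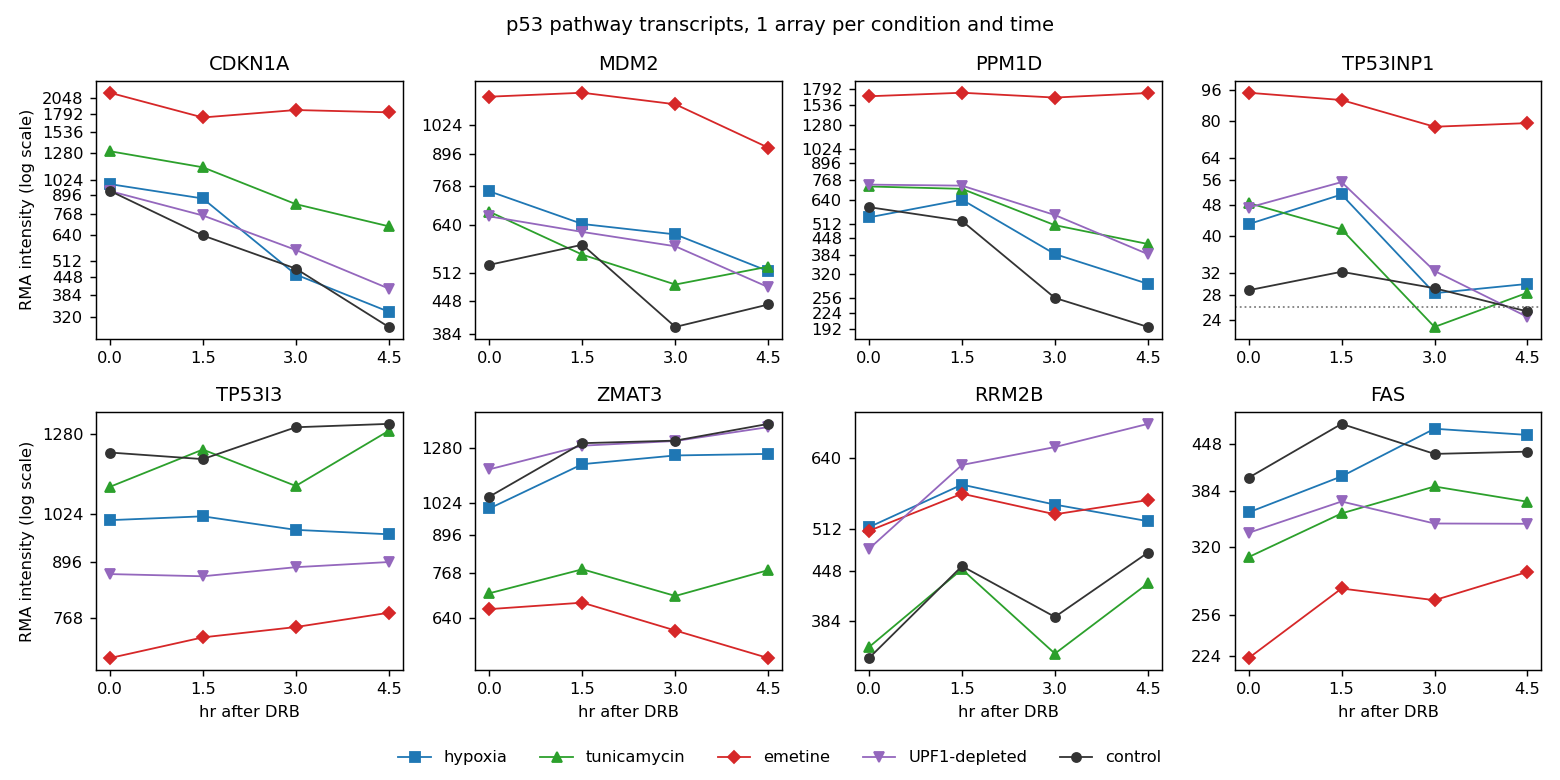
RMA intensity (log scale) of the 8 measured genes against hours after DRB, 1 point per array, with 5 conditions marked by colour and symbol; the dotted line in the TP53INP1 panel is the filter at 26.0. CDKN1A, PPM1D, MDM2 and TP53INP1 lie highest in emetine at every time, while TP53I3, ZMAT3 and FAS lie lowest there.

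Tunicamycin gave a smaller pattern, and the 4 genes called had the same sign as in emetine: CDKN1A and PPM1D were higher and ZMAT3 and FAS lower. That is 2 of 8 genes called higher and 2 called lower, against a background of 11.0% and 11.5% of all genes. MDM2, TP53INP1 and TP53I3 had the emetine sign without being called, and RRM2B had the opposite sign. The comparisons of tunicamycin and of emetine share the control arrays. The ACTB end ratio was 0.54 in tunicamycin and 0.55 in control.

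CDKN1A had intensities of 1304, 1138, 832 and 689.5 in tunicamycin, against 932, 638, 482 and 293 in control. The tunicamycin array was higher at each time, although the ranges overlap. The mean difference was 0.84 ± 0.18 on the log2 scale (1.78-fold higher, limma adjusted p = 0.00425). PPM1D had intensities of 723, 707, 504 and 424 in tunicamycin, against 597, 525, 257 and 196 in control. The difference was again present at each time and averaged 0.70 ± 0.19 (1.62-fold, limma adjusted p = 0.0142), with the second probe set at 0.71. Without the control array at 3 hr its adjusted p was 0.0640, and without the control array at 4.5 hr it was 0.0666, so the call leans on those late control arrays. The fitted PPM1D difference at DRB addition was 0.24 ± 0.15 and was not called (limma adjusted p = 0.440).

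ZMAT3 had intensities of 707, 780.2, 699.5 and 777 in tunicamycin, against 1050.4, 1307, 1321 and 1414 in control, without overlap. It was 1.71-fold lower (log2 -0.77 ± 0.09, limma adjusted p = 4.66e-05), and all 5 probe sets were called lower. FAS had intensities of 309.5, 357, 389.9 and 371 in tunicamycin, against 401, 478, 434 and 437 in control. It was 1.23-fold lower (log2 -0.30 ± 0.07, limma adjusted p = 0.00815), and 2 of its 4 probe sets passed. With the median of the FAS probe sets the adjusted p was 0.0734. MDM2, at 682, 557, 484 and 527 in tunicamycin, had a log2 difference of 0.21 with a limma adjusted p of 0.104, and TP53INP1, TP53I3 and RRM2B also did not pass.

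In hypoxia MDM2 and RRM2B rose and TP53I3 fell. These are 2 genes higher and 1 lower of 8, against 9.99% and 9.93% of all genes. The ACTB end ratio was 2.04 in hypoxia and 0.55 in control, and its part in these results was not tested. RRM2B had intensities of 515, 588, 553 and 525 in hypoxia, against 341, 456, 388 and 475 in control, without overlap. It was 1.32-fold higher over the course (log2 0.40 ± 0.09, limma adjusted p = 0.00419).

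TP53I3 had intensities of 1008, 1018, 981 and 969 in hypoxia, against 1216, 1194, 1304 and 1317 in control. The 2 sets were separate, and the level was 1.26-fold lower in hypoxia (log2 -0.34 ± 0.06, limma adjusted p = 0.000907). MDM2 had intensities of 751, 644, 613 and 515 in hypoxia, against 531, 584, 396 and 441 in control. It was 1.30-fold higher (log2 0.37 ± 0.09, limma adjusted p = 0.00775), but only 1 of its 5 probe sets passed and the estimates ran from -0.24 to 0.37. With the brightest probe set that does not carry a suffix for shared or cross-hybridizing probes, the MDM2 estimate was 0.04 (adjusted p = 0.869).

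The other 5 genes were not called in hypoxia. CDKN1A had intensities of 987, 873, 458 and 334 in hypoxia, close to the control course of 932, 638, 482 and 293, with a log2 difference of 0.16 (95% interval -0.22 to 0.55, limma adjusted p = 0.589). PPM1D differed by 0.33 and TP53INP1 by 0.36, with adjusted p of 0.243 and 0.109 by limma. The probe sets of ZMAT3 disagreed, with 1 called higher at 0.49 and 1 lower at -1.02, and 2 of the 4 FAS probe sets were called lower while the brightest differed by -0.05.

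UPF1 depletion raised RRM2B, PPM1D and MDM2 over the course and lowered TP53I3 and FAS. This is 3 of 8 genes higher and 2 lower, against 17.7% and 13.7% of all genes. The ACTB end ratio was 1.24 in depleted cells and 0.55 in control, and its part in these results was not tested. RRM2B had intensities of 481, 626, 662 and 712 in UPF1-depleted cells, against 341, 456, 388 and 475 in control. Depleted cells were higher on every array, by 0.58 ± 0.09 (1.49-fold, limma adjusted p = 0.000135).

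PPM1D had intensities of 735, 728, 554 and 386 in UPF1-depleted cells, against 597, 525, 257 and 196 in control. It was 1.64-fold higher (log2 0.72 ± 0.19, limma adjusted p = 0.00879), and its second probe set gave 0.70. The fitted PPM1D difference at DRB addition was 0.32 ± 0.15 and was not called (limma adjusted p = 0.174). MDM2, at 667, 620.1, 579.6 and 478 in depleted cells, differed by 0.27 ± 0.09 (limma adjusted p = 0.0296), and 1 of its 5 probe sets passed, with estimates from -0.21 to 0.30. Its call was lost without any 1 of 5 arrays: control at 0 hr (adjusted p = 0.0767), control at 3 hr (0.126), depleted at 0 hr (0.0619), at 1.5 hr (0.0590) and at 3 hr (0.103).

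TP53I3 had intensities of 867, 862, 884 and 897 in UPF1-depleted cells, well under the control values of 1216, 1194, 1304 and 1317. It was 1.43-fold lower (log2 -0.52 ± 0.06, limma adjusted p = 1.04e-05). FAS had intensities of 335, 371, 345 and 345 in UPF1-depleted cells, against 401, 478, 434 and 437 in control, which was 1.25-fold lower (log2 -0.32 ± 0.07, limma adjusted p = 0.00300). Of its 4 probe sets, 3 were called lower, and the estimates ran from -0.51 to 0.05. CDKN1A, at 930.0, 756, 564 and 407 in depleted cells, differed by 0.24 with a 95% interval of -0.15 to 0.62 (limma adjusted p = 0.346).

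**Figure D2:**
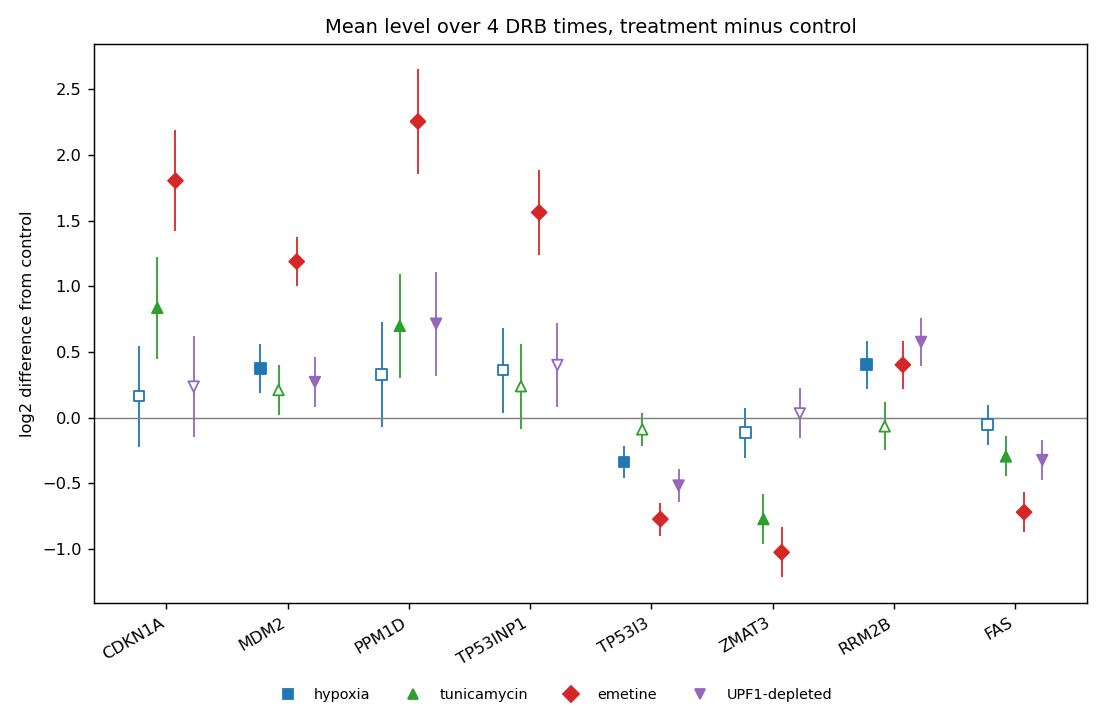
Log2 difference in mean level over the 4 DRB times, treatment minus control, for each gene and treatment; bars are 95% intervals, filled symbols passed limma's adjusted threshold and open symbols did not. Emetine is farthest from 0 for every gene but RRM2B, from 2.26 for PPM1D to -1.03 for ZMAT3; how common this is among all genes was not counted.

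Before transcription was blocked, fewer differences from control were called outside emetine. Each was estimated from a line fitted to the differences between treated and control arrays at the 4 DRB times. In hypoxia RRM2B alone was called, at 0.58 ± 0.12 (limma adjusted p = 0.0119), 1 gene higher and 0 lower against 3.21% and 4.44% of all genes. In tunicamycin ZMAT3 alone was called, at -0.62 ± 0.09 (limma adjusted p = 0.00319), 0 genes higher and 1 lower against 1.97% and 0.926%. In UPF1-depleted cells TP53INP1 (0.84 ± 0.21, limma adjusted p = 0.0186) and RRM2B (0.49 ± 0.12) were higher and TP53I3 (-0.47 ± 0.10) lower, 2 genes and 1 gene against 9.68% and 3.99%. Without the control array at 0 hr, or without the treated array at 0 hr, none of these 5 calls was kept: the adjusted p were 0.266 and 0.231 for RRM2B in hypoxia, 0.0731 and 0.0766 for ZMAT3 in tunicamycin, 0.284 and 0.0626 for TP53INP1, 0.287 and 0.215 for RRM2B and 0.235 and 0.136 for TP53I3 in depleted cells. TP53INP1 in depleted cells also lost its call without the depleted array at 1.5 hr (0.0611) and with the median of its probe sets (0.09, adjusted p = 0.825), and its other probe set gave -0.11. In emetine the same was true of RRM2B, with 0.0996 without the control array and 0.124 without the emetine array at 0 hr.

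The order of the 5 conditions differed between genes. CDKN1A ran from emetine (geometric mean 1879.6) through tunicamycin (961), UPF1-depleted (634) and hypoxia (602) to control (538). Emetine exceeded tunicamycin by 0.97 ± 0.18 on the log2 scale (limma adjusted p = 0.000351) and tunicamycin exceeded UPF1-depleted cells by 0.60 ± 0.18 (limma adjusted p = 0.0182), while UPF1-depleted cells and hypoxia differed by 0.07 ± 0.18 and the last 3 conditions were not separated. PPM1D ran from emetine (1692) through UPF1-depleted (582) and tunicamycin (575) and hypoxia (445) to control (354), with only emetine clear of its neighbour (1.54 ± 0.19, limma adjusted p = 4.40e-06). MDM2 ran from emetine (1099) through hypoxia (625), UPF1-depleted (582) and tunicamycin (558) to control (482), and again emetine was clear of hypoxia (0.81 ± 0.09, limma adjusted p = 1.77e-06) while the neighbours below it were not separated.

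RRM2B was highest in UPF1-depleted cells (614), but emetine (544) and hypoxia (544) were not separated from it (limma adjusted p = 0.102 and 0.137) or from each other (0.989), and tunicamycin (393) and control (412) were lowest. ZMAT3 was highest in UPF1-depleted cells (1293), hypoxia (1169) and control (1266), which were not separated, then came tunicamycin (740.2) and emetine (621), whose difference of -0.25 ± 0.09 passed (limma adjusted p = 0.0251). TP53I3 ran upward from emetine (735) through UPF1-depleted (878), hypoxia (994) and tunicamycin (1180.1) to control (1257), and each step but the last passed: tunicamycin minus hypoxia was 0.25, UPF1-depleted minus hypoxia -0.18 and emetine minus UPF1-depleted -0.26 (limma adjusted p = 0.00362, 0.0266 and 0.00156). Over the 6 pairs of treatments, all 8 genes were called between emetine and tunicamycin (55.8% of all genes in either direction), 7 between emetine and UPF1-depleted cells (53.3%), 7 between emetine and hypoxia (58.6%), 4 between tunicamycin and UPF1-depleted cells (35.3%), 5 between tunicamycin and hypoxia (38.1%) and 2 between UPF1-depleted cells and hypoxia (35.0%).

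After DRB, CDKN1A and PPM1D had the steepest loss of the 8 genes in control. At 4.5 hr CDKN1A stood at 33.8% of its own level at DRB addition in hypoxia, 52.9% in tunicamycin, 84.7% in emetine, 43.7% in UPF1-depleted cells and 31.5% in control. PPM1D stood at 53.9% in hypoxia, 58.6% in tunicamycin, 103% in emetine, 52.4% in UPF1-depleted cells and 32.9% in control. These shares are relative to each array's typical transcript and are no half-lives.

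Within conditions, the slope of CDKN1A was -0.37 ± 0.04 log2 per hr in hypoxia, -0.21 ± 0.04 in tunicamycin, -0.04 ± 0.04 in emetine, -0.27 ± 0.04 in UPF1-depleted cells and -0.36 ± 0.04 in control, each called by limma except in emetine. PPM1D had slopes of -0.23, -0.19, 0.00, -0.21 and -0.39 in that order (SE 0.05 each), again called except in emetine. The decline of the brightest MDM2 probe set was shallow, from -0.11 to -0.07, and was called in hypoxia only (limma adjusted p = 0.0428). None of the other MDM2 probe sets above the filter was called in hypoxia. The third brightest sloped upward in every condition, from 0.04 in hypoxia to 0.11 in tunicamycin, without a call. A dimmer MDM2 probe set fell in control (-0.14, limma adjusted p = 0.0207). The TP53INP1 probe set used fell in tunicamycin (-0.21) and in UPF1-depleted cells (-0.24). It went below the filter there, to 23.1 at 3 hr in tunicamycin and 24.5 at 4.5 hr in depleted cells. The other TP53INP1 probe set above the filter had slopes of 0.04 and 0.07 in these conditions, neither called. ZMAT3 rose in control (0.09, limma adjusted p = 0.0326). TP53I3, RRM2B and FAS had no called slope in any condition.

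Counted by condition, 0 genes rose and 3 fell in hypoxia (15.3% and 14.2% of all genes), 0 and 3 in tunicamycin (11.0% and 11.4%), 0 and 0 in emetine (0.0691% and 0.325%), 0 and 3 in UPF1-depleted cells (11.0% and 16.5%), and 1 and 2 in control (14.2% and 17.5%). Few transcripts of any kind had a called slope in emetine, by the shares just given. In hypoxia only 1 of these slopes was called without the array at 4.5 hr, and likewise 1 in UPF1-depleted cells without the array at 4.5 hr and 1 in tunicamycin without the array at 0 hr. With each array left out in turn, 1 to 2 were called in hypoxia and 1 to 2 in tunicamycin, so no such fit kept the count of 3 there. In UPF1-depleted cells 1 to 3 were called.

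**Figure D3:**
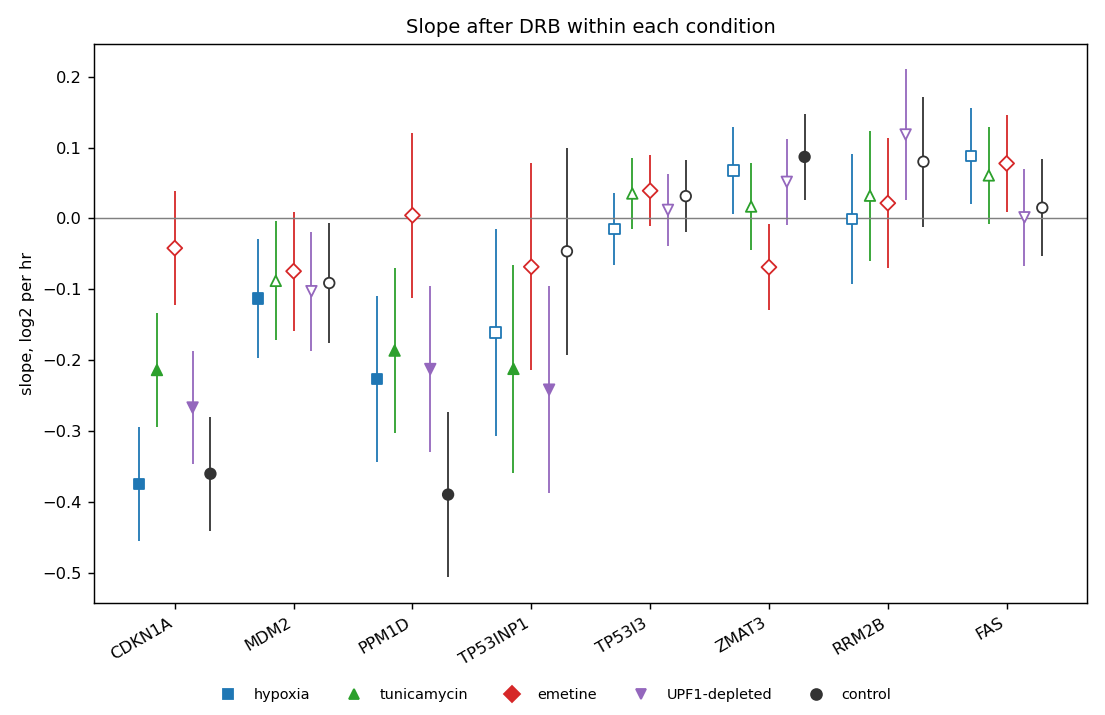
Slope after DRB in log2 per hr within each condition, with 95% intervals, for the 8 genes; filled symbols passed limma's adjusted threshold. CDKN1A and PPM1D slope down in all conditions but emetine, where both lie near 0 (-0.04 and 0.00).

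Tested directly, 4 slope differences from control passed. In emetine the slopes of PPM1D (0.39 ± 0.05 log2 per hr, limma adjusted p = 0.000211) and CDKN1A (0.32 ± 0.05, limma adjusted p = 0.00127) were above control, and that of ZMAT3 was below (-0.16 ± 0.03, limma adjusted p = 0.00580), 2 genes higher and 1 lower against 12.8% and 1.58% of all genes. Without the emetine array at 4.5 hr the adjusted p of CDKN1A was 0.0502 and that of ZMAT3 0.112, leaving 1 gene called. ZMAT3 also lost its call without the control array at 0 hr (0.127) or the emetine array at 0 hr (0.0598).

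In tunicamycin PPM1D fell more slowly than in control (0.20 ± 0.05, limma adjusted p = 0.0414), 1 gene higher and 0 lower against 4.66% and 0.580%. This call was lost without any 1 of the 8 arrays of tunicamycin and control, with adjusted p of 0.0600 to 0.251. In hypoxia 0 genes were higher and 0 lower (0.0345% and 0% of all genes), and in UPF1-depleted cells likewise 0 and 0 (0.0345% and 0.00691%). The estimates for PPM1D there were 0.16 ± 0.05 in hypoxia (limma adjusted p = 0.304, unadjusted p = 0.00823) and 0.18 ± 0.05 in depleted cells (limma adjusted p = 0.420, unadjusted p = 0.00493).

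Upstream of these targets, 11 regulators of p53 could be tested. By mean level 0 rose and 2 fell in hypoxia, 2 rose and 0 fell in tunicamycin, 7 rose and 2 fell in emetine, while 4 rose and 0 fell in UPF1-depleted cells, with list medians of -0.06, 0.04, 0.32 and 0.09. Of all genes, 9.99% rose and 9.93% fell in hypoxia, 11.0% and 11.5% in tunicamycin, 28.4% and 35.4% in emetine, and 17.7% and 13.7% after UPF1 depletion. The medians over all genes were -0.01, -0.02, -0.10 and -0.01. MDM4, which binds p53 and blocks its activity, rose by 0.44 with tunicamycin, by 0.72 with emetine and by 0.75 after UPF1 depletion (limma adjusted p = 0.00204, 2.60e-06 and 9.68e-06). RCHY1, a ubiquitin ligase of p53, was lower in hypoxia (-0.53, limma adjusted p = 0.0381) and higher in tunicamycin (1.03, limma adjusted p = 0.000781) and emetine (1.31, limma adjusted p = 7.97e-06). In emetine TP53BP1, a DNA damage mediator, rose by 0.81, and HIPK2, a kinase that phosphorylates p53, was at -0.98. The other regulator called lower in emetine was CDKN2A (-0.38). Its probe set lay near the filter at 26.0, with a mean intensity of 28.4 over all arrays.

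Among 45 other direct p53 targets, 8 rose and 0 fell in hypoxia, 10 rose and 6 fell in tunicamycin, 30 rose and 5 fell in emetine, and 16 rose and 3 fell in UPF1-depleted cells. The shares of all genes called are those just given, 28.4% higher and 35.4% lower in emetine. The list medians were 0.12, 0.03, 0.47 and 0.22. TNFRSF10B, a death receptor for TRAIL, was higher in tunicamycin (0.96 ± 0.12, limma adjusted p = 6.25e-05) and in emetine (1.10 ± 0.12, limma adjusted p = 8.12e-07), and by 0.69 after UPF1 depletion (limma adjusted p = 0.000350). PMAIP1, which encodes the BH3-only protein NOXA, was 2.75-fold higher in tunicamycin (log2 1.46 ± 0.16, limma adjusted p = 3.07e-05). It also rose by 0.58 in emetine (limma adjusted p = 0.00535) and by 1.17 after UPF1 depletion (limma adjusted p = 6.52e-05). PERP, a desmosomal protein, was lower in tunicamycin and emetine (-0.38 and -0.39). SESN2, a stress-inducible inhibitor of mTORC1 signalling, was 15.3-fold higher in tunicamycin at DRB addition and then fell faster than in control (-0.63 ± 0.09 log2 per hr, limma adjusted p = 0.00139).

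E2F7, a repressor of cell cycle genes, was higher in hypoxia (0.63 ± 0.14, limma adjusted p = 0.00533), in tunicamycin (0.84, limma adjusted p = 0.000843) and in emetine (1.17, limma adjusted p = 3.79e-06). CES2, a carboxylesterase, rose by 0.33 in emetine (limma adjusted p = 0.000585) and by 0.68 in UPF1-depleted cells (limma adjusted p = 2.86e-06). In slope against control, 14 of the 45 were higher and 0 lower in emetine, against 12.8% and 1.58% of all genes. PLK2, a polo-like kinase, was among them (1.17 ± 0.13 log2 per hr, limma adjusted p = 8.04e-05). In emetine 0 of the 45 rose after DRB and 0 fell (0.0691% and 0.325% of all genes), and in control 1 rose and 20 fell (14.2% and 17.5%). TRAF4, a signalling adaptor, was among those that fell in control, at -0.48 ± 0.05 log2 per hr.

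**Figure D4:**
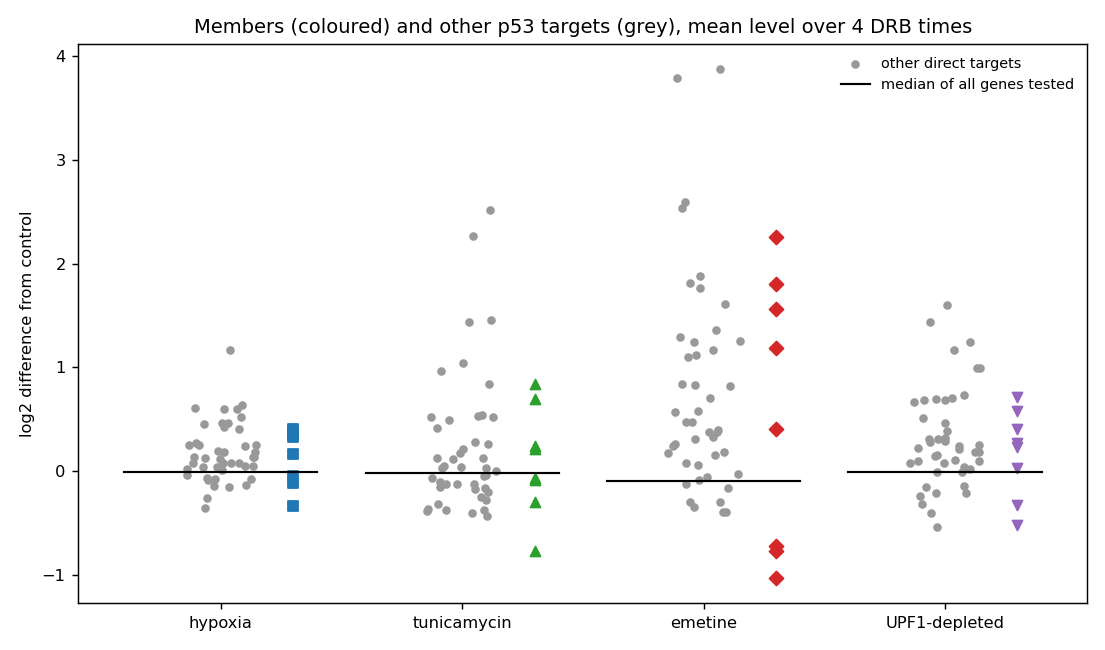
Log2 difference from control in mean level over the 4 DRB times for 45 other p53 targets (grey, 1 point per gene, spread sideways for legibility) and the 8 genes of the set (coloured), by treatment; the black line is the median of all genes tested. In emetine 30 of the 45 were called higher, against 28.4% of all genes, and the 8 genes range from -1.03 to 2.26.

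Of 10 cell cycle genes that are known to be repressed downstream of p21, 2 rose and 0 fell in hypoxia, 1 rose and 0 fell in tunicamycin, 8 rose and 0 fell in emetine, and 0 rose and 2 fell in UPF1-depleted cells. Of all genes, 9.99% rose and 9.93% fell in hypoxia and 11.0% and 11.5% in tunicamycin. The shares were 28.4% and 35.4% in emetine and 17.7% and 13.7% after UPF1 depletion. In emetine, where CDKN1A was 3.49-fold higher, the 8 stood against 28.4% of all genes called higher, and BIRC5 (0.00) and CDC20 (0.13) did not pass. At DRB addition 3 of the 10 were higher and 0 lower in emetine, against 18.9% and 19.8% of all genes. By mean level CDC25C, a mitotic phosphatase, rose by 1.79 ± 0.13 (limma adjusted p = 1.93e-08) and BUB1, a spindle checkpoint kinase, by 0.96 ± 0.10 (limma adjusted p = 6.79e-07). In UPF1-depleted cells CDC20 and CCNB2, an activator of the anaphase-promoting complex and a mitotic cyclin, were lower by small amounts (-0.26 and -0.30, limma adjusted p = 0.0223 and 0.0324).

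Across the 20 arrays, the genes whose log2 values most resembled those of CDKN1A were ACVR2A, BRPF1 and IWS1 (Pearson r = 0.987, 0.978 and 0.978). With CDKN1A, PPM1D reached 0.940 (rank 179 among all genes tested), TP53INP1 0.847 (rank 1043) and MDM2 0.840 (rank 1113). Many genes outside the set were thus closer to CDKN1A, and RRM2B stood at -0.09. For MDM2 they were SUZ12, CNTRL and GPBP1 (0.965, 0.964 and 0.964). The 20 points share conditions and DRB times, so these values are a description. ZMAT3, FAS and TP53I3 ran against CDKN1A, at r = -0.84, -0.82 and -0.55 (ranks 13906, 13689 and 10248 among the 14478 genes tested).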

How the data were processed

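Affymetrix 3' arrays measured total RNA of U2OS cells. Per the submitters' processing notes, the authors computed the deposited intensities by RMA (version not given); values are linear, background-corrected and normalized between arrays. RMA removes changes shared by most transcripts, so levels and slopes are relative to the array's typical transcript. No detection calls were used.

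Intensities were log2 transformed. Probe sets with 1 gene symbol (41091 after 6 control probe sets were set aside) covered 19775 genes. Each gene took its probe set with the highest mean, and the 14478 genes whose mean exceeded the array-wide 40th percentile (log2 4.70) were tested with limma 3.58.1 in R 4.3.3 (lmFit, eBayes). Mean level used DRB time as a factor and condition (8 coefficients, 12 residual degrees of freedom). Level at DRB addition and slope difference added a linear time term per treatment (12 and 8). Slopes within a condition used a line each (10 and 10). P-values were adjusted by Benjamini-Hochberg over all genes, threshold 0.05, and name a change only where passed. Fits were tested on simulated data.

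All members are named; other pathway genes are the 2 with the largest statistics in each direction among those passing, a selection of which is given. Members and lists were chosen with earlier results of these data known. The 5 lists, 3 of pathway genes and 2 of markers, were copied from general knowledge. Alternatives covered the filter, normalization, probe set choice, variance model, arrays in the fit and each array left out. Testing every probe set separately was chosen after seeing the data. With 1 array per condition and time, the number of arrays limits precision.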

Additional observations from a re-analysis of the deposited data

Results flagged for a closer look

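Slope differences from control were singled out because a direct test of the difference between 2 conditions passed. PPM1D fell more slowly in tunicamycin than in control, by 0.20 log2 per hr, and had a slope 0.39 log2 per hr above control in emetine. CDKN1A was 0.32 log2 per hr above control in emetine. ZMAT3 ran the other way in emetine, at -0.16 log2 per hr relative to control. The first of the 4 was lost without any 1 of the 8 arrays it rests on. No explanation was tested for any of them.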

How the results depend on the processing

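Numbers of members called were recomputed under 269 settings for 17 results, and 232 stayed within 1.5 times the main number while 37 moved. For 37 single-member results, 609 settings gave 559 that kept the call, 50 that lost it and 0 that reversed direction. The cause of each move was not tested unless given here.

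Without probe sets ending in _s_at, _x_at or _a_at only 5 members are measured; the numbers called were then for mean level 1 (hypoxia), 2 (tunicamycin), 5 (emetine) and 2 (UPF1 depletion), 5 in emetine at DRB addition, 0 for slope in tunicamycin against control and 1 for slope within hypoxia. With only the treatment and control arrays, which leaves fewer residual degrees of freedom, level at DRB addition gave 0 in hypoxia, 0 in tunicamycin and 1 in UPF1-depleted cells, and slope against control in tunicamycin gave 0. At DRB addition hypoxia gave 3 with the median of a gene's probe sets and 2 with dim signals raised to the filter value, and tunicamycin gave 2 with a filter at the 60th percentile and 3 with a trended, robust variance. Slope in tunicamycin against control gave 0 with no filter and 0 with quantile normalization. Slope within UPF1-depleted cells gave 5 with the trended, robust variance and 5 with its own arrays alone.

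Leaving out each array in turn gave, for level at DRB addition, 0 to 1 in hypoxia, 0 to 1 with tunicamycin, 7 to 8 with emetine and 0 to 3 after UPF1 depletion. For mean level it gave 3 to 3, 3 to 5, 8 to 8 and 4 to 6 in that order. For slope against control it gave 1 to 3 in emetine and 0 to 0 in the other treatments. For slopes within a condition it gave 1 to 2 in hypoxia, 1 to 2 in tunicamycin, 0 to 0 in emetine, 1 to 3 in UPF1-depleted cells and 2 to 3 in control. Arrays were matched by DRB time in the mean-level, level and slope-difference fits. Dim signals limit TP53INP1, which lay near the filter at 26.0 outside emetine.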

Other observations

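All 5 ZMAT3 probe sets had upward slopes after DRB in control, from 0.09 to 0.20 log2 per hr, and no test compared them. The steepest one in control rose by 0.13 log2 per hr in hypoxia, 0.14 with tunicamycin and 0.14 after UPF1 depletion, against 0.20 in control, each called by limma with every probe set tested on its own. In emetine it had a slope of -0.01 ± 0.04 (limma adjusted p = 0.903). This probe set was picked by its slope in these data. The brightest ZMAT3 probe set had slopes of 0.07 in hypoxia, 0.02 with tunicamycin and 0.05 after UPF1 depletion, none called. The remaining ZMAT3 probe sets were not called in those conditions either, and the dimmest was at -0.01 in hypoxia.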
